A study of Mus musculus with 18 samples.

Results

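Of the 55450 genes of the GENCODE M21 annotation (mouse genome build GRCm38), 9 were picked by hand for long or strong peaks of MDA5-protected RNA inside their introns in all 3 libraries of a genotype. They are *Sult2a1*, *Dpyd*, *Gtdc1*, *Hnf4g*, *Thrb*, *Cnot4*, *Sgcz*, *Sdc2* and *Ppp1r13b*. Because the MDA5-protected peaks chose the genes, their values are given as a description with no test. Peaks of the RNase-only and input libraries were not used to choose the genes and were tested between genotypes. However, input reads served as control when the MDA5-protected peaks were called. RNA that resists RNase without MDA5 can also lie under MDA5-protected peaks, so that neither test is fully independent of the choice.

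Total liver RNA of mouse pups aged 8 to 9 days was divided into 3 fractions. MDA5-protected RNA survived digestion with RNase A and T1 after incubation with MDA5ΔCARD, a recombinant mouse MDA5 without its signalling domains. RNase-only RNA was digested without that protein, and input RNA was not digested. Each fraction was sequenced in 3 biological replicates from *Mavs*-/- mice, which edit their RNA, and in 3 from *Adar*-/-; *Mavs*-/- mice, called editing-deficient here, so that all 18 libraries lack the adaptor MAVS. The sample titles call the *Mavs*-/- mice wild-type, although the genotype field gives the deletion. RNA came from liver tissue, and no cell type was isolated.

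MDA5 is a cytoplasmic sensor that forms filaments along long double-stranded RNA and signals through MAVS. ADAR1 converts adenosines within double-stranded RNA to inosines, which weakens or alters base pairing. Introns are removed from transcripts in the nucleus, and long introns often hold repeats, inverted pairs of which can fold into double-stranded stretches. Total RNA includes unspliced transcripts, and the incubation took place with extracted RNA, not in cells.

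The authors called peaks separately in every library and on each strand, using the input of the genotype as control for digested libraries. The lists held 1180 to 2868 peaks in the MDA5-protected, 3150 to 6094 in the RNase-only and 4326 to 8948 in the input libraries. Read counts are not part of the lists. The depth behind a peak cannot be read from them, and the absence of a peak does not show the absence of RNA. The editing-deficient RNase-only library of replicate 1 stood apart, with 14.5% of its peaks in introns against 24.3 to 39.8% in the 5 others, and with 7 peaks over the 9 genes against 31 to 115. The *Mavs*-/- MDA5-protected library of replicate 1 also differed from its own group, with 55.9% intronic peaks against 42.0 and 37.1% in replicates 2 and 3. All 8 hepatocyte markers looked up, albumin among them, had peaks in every input library, and the cholangiocyte markers *Krt19* and *Epcam* had none. Of the leukocyte markers, *Ptprc* and *Cd68* had none and *Lyz2* had 1 in every input library. Of the 4 markers of skeletal and heart muscle only *Acta1* had input peaks, 3 in editing-deficient replicate 1 and none in the other libraries. No input library had a peak over *Mavs*, and *Adar* had 1 in each of the editing-deficient replicates 2 and 3 and none in the other input libraries. A peak does not show whether the deleted exons are present, so that these peaks do not test the genotype labels.

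A peak was counted as own-strand where it lay over the gene body on the gene's strand, and as intronic where it touched no annotated exon of that strand. The score of a peak is its area under the significance curve, which grows with depth, so that it was read only as a rank within its library (rank 1 is the largest area) or as a percentile (100 is the largest). The 6 MDA5-protected libraries held 497 own-strand peaks over the 9 genes, 187 in *Mavs*-/- and 310 in editing-deficient mice, and 492 of them were intronic. These were 4.42% of all 4229 peaks in *Mavs*-/- and 4.26% of all 7272 in editing-deficient mice, so that the larger number in the latter went with longer lists. The 5 peaks that touched an exon were all in *Ppp1r13b*. Peaks that overlapped between libraries were merged into 125 regions, of which 19 had a peak in all 6 libraries, 56 (44.8%) in editing-deficient libraries only and 4 (3.20%) in *Mavs*-/- libraries only. Over all 3198 regions of genes with an intron the last 2 shares were 54.2% and 11.8%. A single library supported 39 of the 125 regions, or 31.2%, against 48.3% over all genes. The genes differed in how far their protection was shared: in 8 of the 9 an intronic peak was present in all 3 editing-deficient libraries, but in only 4 (*Thrb*, *Sgcz*, *Sdc2* and *Dpyd*) in all 3 *Mavs*-/- libraries. Over all 33369 genes with an intron the shares were 0.974% for the editing-deficient and 0.411% for the *Mavs*-/- libraries. These shares are background only, since the genes were chosen on these peaks.

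**Figure D1:**
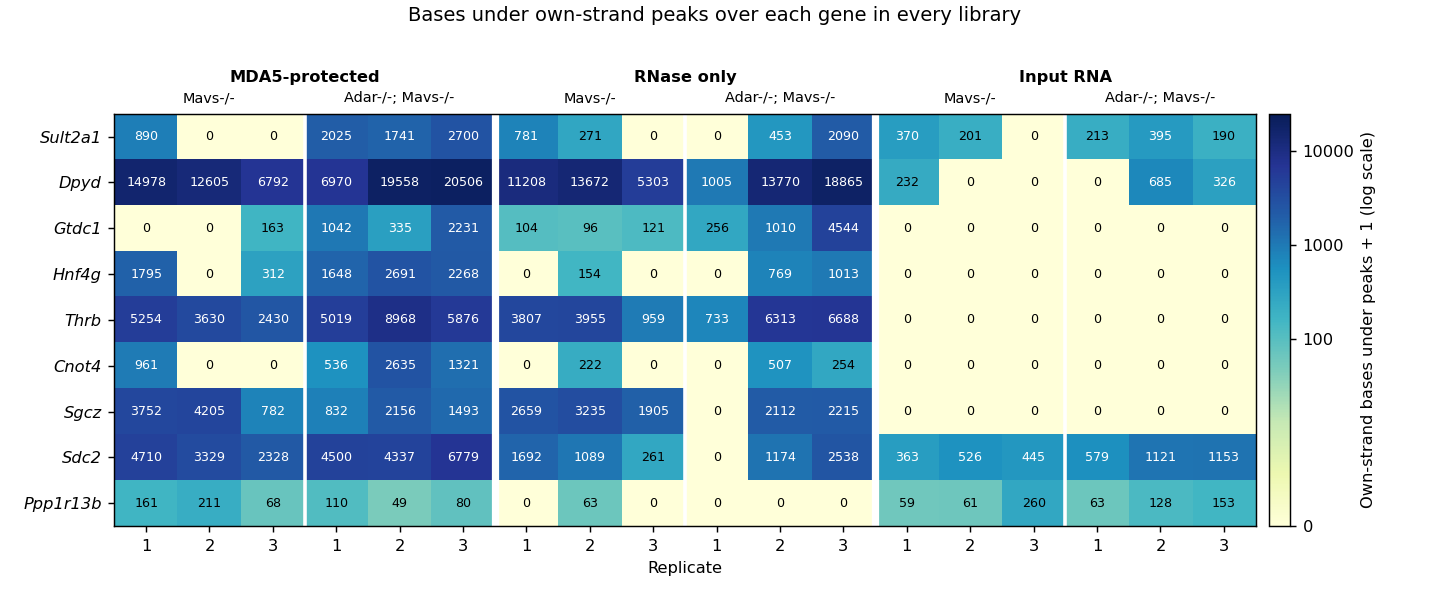
Number of bases under own-strand peaks over each gene (rows) in each of the 18 libraries (columns, by fraction, genotype and replicate), printed in each cell and coloured on a log scale. *Dpyd* covered the most bases in every digested library, and 5 genes had no input peak in any library.

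*Sult2a1*, *Dpyd* and *Gtdc1* encode enzymes or an enzyme-like protein. *Sult2a1* encodes a liver sulfotransferase of bile acids and steroids. The gene spans 41.2 kb on chromosome 7 (13796246–13837409, minus strand), and all of its 18 own-strand MDA5-protected peaks lay in intron 3, its longest, of 28452 nt. In the editing-deficient libraries of replicates 1, 2 and 3 the peaks covered 2025, 1741 and 2700 bases. In the *Mavs*-/- libraries they covered 890 bases in replicate 1 and none in replicates 2 and 3. The groups did not overlap, with 2155 ± 493 against 297 ± 514 bases (mean ± SD, n = 3 each), and those of *Gtdc1* did not either. Both genes were chosen on these peaks, and the share of such genes in the annotation was not computed. The *Mavs*-/- lists of replicates 2 and 3 held 512 and 438 intronic peaks, against 913 to 1591 in the editing-deficient lists.

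The leading region of *Sult2a1*, the region with the most supporting libraries and then the best ranks, was chr7:13808208-13809186 (979 nt, minus strand). In editing-deficient mice it held a single peak of 932 nt in replicate 1, ranked 32 of 1636, and a single peak of 979 nt in replicate 2, ranked 34 of 2768. Replicate 3 held 2 peaks there, of 507 and 135 nt, the first ranked 74 of 2868. The region was therefore among the strongest of each editing-deficient library, with percentiles of 98.1, 98.8 and 97.5. In *Mavs*-/- replicate 1 the same stretch was split into peaks of 530 and 360 nt at percentiles of 81.9 and 83.5. RNase-only peaks touched only its 5′ end, with 228 and 135 nt in editing-deficient replicates 2 and 3 and 238 nt in *Mavs*-/- replicate 1. Elsewhere in intron 3, the regions 13816895–13817168 and 13828266–13828639 had peaks in all 3 editing-deficient libraries and in no *Mavs*-/- library. *Sult2a1* belongs to a cluster of closely related genes, and how reads that match several copies were placed was not tested.

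*Dpyd* encodes dihydropyrimidine dehydrogenase, which starts the breakdown of uracil and thymine in the liver. It spans 870.8 kb on chromosome 3 (118562129–119432924, plus strand) and carried 242 of the 497 peaks, in 63 regions spread over 15 of its 22 introns. The peaks covered 14978, 12605 and 6792 bases in *Mavs*-/- and 6970, 19558 and 20506 bases in editing-deficient replicates 1, 2 and 3. The groups overlapped, since editing-deficient replicate 1 lay close to the lowest *Mavs*-/- library. The means were 11458 ± 4212 bases in *Mavs*-/- and 15678 ± 7556 bases in editing-deficient mice (SD, n = 3 each).

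The peaks of *Dpyd* were densest in intron 12, where 104 of the 242 lay within 27.3 kb (118948142–118975449). This stretch contains the leading region of the editing-deficient mice, chr3:118962898-118966000 (3103 nt), which had peaks in all 6 libraries. Its best peak ranked 43 of 1636, 25 of 2768 and 87 of 2868 in the editing-deficient libraries. In *Mavs*-/- mice the leading region was chr3:119208118-119208692 (575 nt) in intron 18, with best peaks of 310, 359 and 395 nt that ranked 143 of 1829, 135 of 1220 and 76 of 1180. It too had peaks in all 6 libraries. The longest peak of all 9 genes, of 1370 nt, lay in intron 3 of *Dpyd* (118682200–118683569) in editing-deficient replicate 3, where it ranked 21 of 2868.

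*Gtdc1* encodes a protein with a glycosyltransferase-like domain. The gene spans 363.2 kb on chromosome 2 (44564412–44927657, minus strand) and had the fewest peaks in *Mavs*-/- mice, with a single one of 163 nt in replicate 3. In editing-deficient mice the peaks covered 1042, 335 and 2231 bases in replicates 1, 2 and 3. Of its 9 regions, only chr2:44610004-44610395 (392 nt) in intron 6 was found in all 3 editing-deficient libraries. Its peaks of 314, 335 and 294 nt had percentiles of 54.6, 58.5 and 68.8, so that *Gtdc1* was among the weaker genes of the set by area. The *Mavs*-/- peak lay near the 5′ end of the gene (44926963–44927125), in intron 1 of transcript *Gtdc1*-205. RNase-only peaks touched that place in all 3 *Mavs*-/- libraries and in 2 editing-deficient ones.

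*Hnf4g*, *Thrb* and *Cnot4* encode regulators of gene expression. *Hnf4g* encodes hepatocyte nuclear factor 4 gamma, a nuclear receptor related to HNF4A, and spans 150 kb on chromosome 3 (3508030–3658052, plus strand). All of its 24 peaks lay in the 129726 nt first intron of the longer transcript *Hnf4g*-201, upstream of the transcript with the main protein product, *Hnf4g*-202. Each editing-deficient library had 6 peaks, covering 1648, 2691 and 2268 bases. The *Mavs*-/- libraries had 5, 0 and 1 peaks, covering 1795, 0 and 312 bases, so that replicate 1 alone reached the editing-deficient range.

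The leading region of *Hnf4g* was chr3:3532157-3533320 (1164 nt). In editing-deficient replicate 2 a single peak filled it and ranked 46 of 2768. Its best peak in replicates 1 and 3 ranked 145 of 1636 and 660 of 2868, with 404 and 287 nt. A second cluster of peaks, at 3576420–3578121, was present in all 3 editing-deficient libraries and in *Mavs*-/- replicate 1.

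*Thrb* encodes thyroid hormone receptor beta, the main thyroid hormone receptor of hepatocytes, and spans 377.8 kb on chromosome 14 (17660261–18038090, plus strand). Its 82 peaks covered 5254, 3630 and 2430 bases in *Mavs*-/- and 5019, 8968 and 5876 bases in editing-deficient replicates 1, 2 and 3. Most of them fell into 2 clusters of 33 peaks each, at 17791656–17798201 in intron 1 of *Thrb*-201 and at 17991982–17995623 in intron 1 of *Thrb*-202. Both clusters had peaks in all 6 libraries. The leading region of both genotypes was chr14:17991982-17992881 (900 nt). Its best peak ranked 317 of 1829, 122 of 1220 and 116 of 1180 in *Mavs*-/- and 54 of 1636, 102 of 2768 and 131 of 2868 in editing-deficient mice. The percentiles of 96.8, 96.3 and 95.5 in editing-deficient mice lay above those of 82.7, 90.1 and 90.3 in *Mavs*-/- mice. The ranks of the groups overlapped, however, and the lists differed in length. *Thrb* was chosen on these peaks, and the share of all genes with the same order of percentiles was not computed. All 6 RNase-only libraries also had a peak in the leading region, at percentiles of 90.1 to 98.8.

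*Cnot4* encodes a ubiquitin ligase that associates with the CCR4-NOT complex, which shortens mRNA tails, and spans 111.7 kb on chromosome 6 (35022065–35133724, minus strand). Of its 14 peaks, 13 lay within 2.76 kb of intron 1 (35104616–35107375), an intron of 53275 nt. They covered 536, 2635 and 1321 bases in the editing-deficient libraries, when the lone peak outside the cluster is included. In *Mavs*-/- mice 961 bases were covered in replicate 1 and none in replicates 2 and 3. The leading region chr6:35106071-35107375 (1305 nt) was never covered by a single peak. Its best peak had percentiles of 44.9, 87.1 and 79.2 in the editing-deficient libraries, and no RNase-only library of either genotype had a peak there.

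*Sgcz* and *Sdc2* encode membrane proteins. *Sgcz* encodes zeta-sarcoglycan, a subunit of a membrane complex best known from muscle, and spans 1139 kb on chromosome 8 (37522298–38661508, minus strand). Yet all 33 peaks lay within 6.76 kb (38417158–38423919) of intron 1, or 0.594% of the gene. *Sgcz* was the only gene of the set with larger mean coverage in *Mavs*-/- mice apart from *Ppp1r13b*. The *Mavs*-/- libraries covered 3752, 4205 and 782 bases and the editing-deficient ones 832, 2156 and 1493 bases, so that the groups overlapped through *Mavs*-/- replicate 3. The leading region of both genotypes was chr8:38422070-38423003 (934 nt), with peaks of 913, 909 and 426 nt in *Mavs*-/- and of 392, 362 and 436 nt in editing-deficient mice. Its percentiles were 92.8, 94.7 and 73.7 in *Mavs*-/- and 21.3, 71.0 and 77.5 in editing-deficient mice.

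*Sdc2* encodes syndecan-2, a heparan sulfate proteoglycan of the cell surface, and spans 114.2 kb on chromosome 15 (32920723–33034935, plus strand). Its 63 peaks covered 4710, 3329 and 2328 bases in *Mavs*-/- and 4500, 4337 and 6779 bases in editing-deficient mice. They formed 3 clusters, 2 in intron 1 and 1 in intron 2, and each held peaks of both genotypes. The leading region of *Mavs*-/- mice, chr15:32953415-32956259 (2845 nt), held the longest peak of any *Mavs*-/- library over the 9 genes, with 1250 nt and rank 38 of 1220 in replicate 2. Replicates 1 and 3 had peaks of 1165 and 740 nt there, ranked 45 of 1829 and 65 of 1180. The region held 3, 4 and 4 peaks in *Mavs*-/- and 7, 6 and 4 peaks in the editing-deficient libraries, the longest of the latter with 767, 538 and 1115 nt. In editing-deficient mice the leading region was chr15:33009274-33010844 (1571 nt), with best ranks of 99 of 1636, 140 of 2768 and 58 of 2868. The leading region of *Mavs*-/- mice came close, with best ranks of 58, 201 and 44 in the same libraries. Both regions had peaks in all 6 libraries, so that the choice between them rests on small differences in rank.

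**Figure D2:**
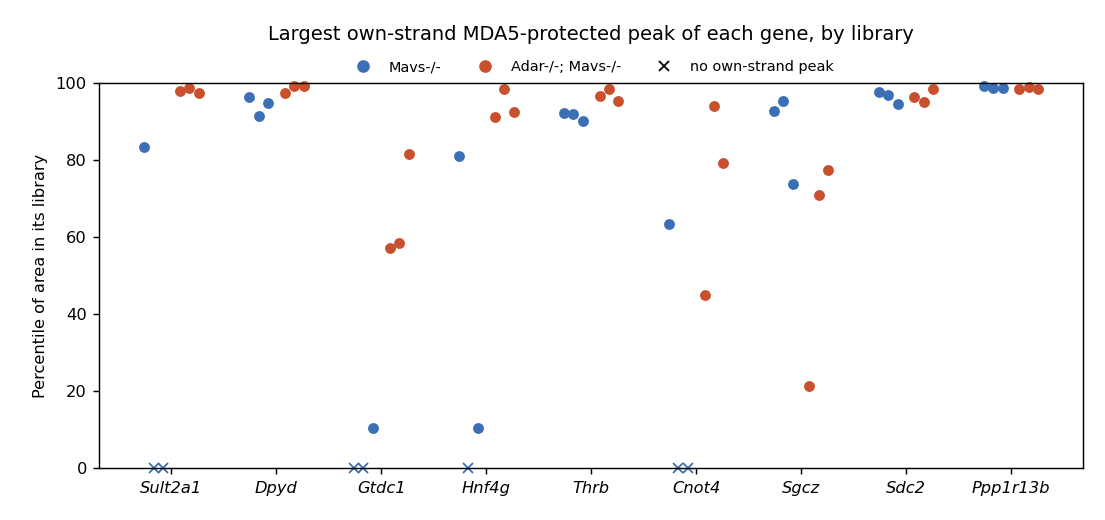
Percentile of the largest own-strand MDA5-protected peak of each gene by area in its library, 1 point for each of the 3 *Mavs*-/- (blue) and 3 editing-deficient (red) libraries; crosses mark libraries with no peak. *Ppp1r13b*, *Sdc2*, *Dpyd* and *Thrb* stayed at or above 90.3 in all 6 libraries, while *Sult2a1*, *Gtdc1*, *Hnf4g* and *Cnot4* had no peak in at least 1 *Mavs*-/- library.

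*Ppp1r13b*, which encodes ASPP1, a protein that binds p53, differed from the other genes and went against the description as intronic. It spans 79.7 kb on chromosome 12 (111828457–111908110, minus strand) and had exactly 1 own-strand peak in each MDA5-protected library, all at the junction of exon 1 and intron 1. In *Mavs*-/- replicates 1, 2 and 3 the peaks were 161, 211 and 68 nt long, with 61, 134 and 1 bases in exon 1. In the editing-deficient libraries they were 110, 49 and 80 nt long, with 61, 0 and 22 bases in exon 1. Thus 5 of the 6 peaks touched the exon, although the 49 bases shared by all 6 (111907813–111907861) lay in intron 1, directly beside the splice site. To show what the exonic part holds, the last 30 bases of exon 1 (chr12:111907862-111907891, minus strand, GRCm38, from the GENCODE transcript *Ppp1r13b*-201) are given, with the 9 coding bases from the start codon in capitals:
Ppp1r13b exon 1 end: ggcgcggcggacggcgccgcgATGATGCCG
G and C made up 83.3% of these bases and 81.1% of the whole exon of 249 nt, against 55.0% of the transcript.

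The *Ppp1r13b* peaks had the lowest median length of the set, 95 nt, and were the most significant. They ranked 12 of 1829, 17 of 1220 and 16 of 1180 in *Mavs*-/- and 26 of 1636, 28 of 2768 and 43 of 2868 in editing-deficient mice. Their −log10 adjusted p, a measure of each peak against input, was 445, 283 and 454 in *Mavs*-/- and 83.8, 118 and 101 in editing-deficient mice. The other 8 genes had no peak above 14.4. The same place had a peak in all 6 input libraries on both strands, and the opposite-strand peak ranked higher in each (441 to 963, against 1552 to 3615 on the gene's strand). No MDA5-protected library had an opposite-strand peak over the gene.

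**Figure D3:**
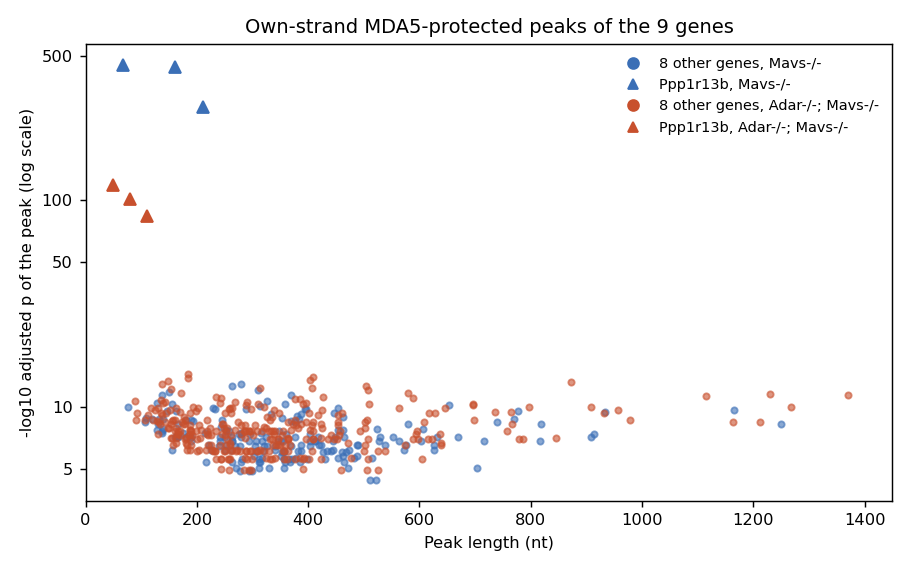
Length in nt of each own-strand MDA5-protected peak of the 9 genes against its −log10 adjusted p (log axis), in *Mavs*-/- (blue) and editing-deficient (red) libraries. The 6 *Ppp1r13b* peaks (triangles) lie at 49 to 211 nt and at 83.8 or above, and all other peaks (circles) at or below 14.4 with lengths up to 1370 nt.

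The position of the regions within introns was not used to choose the genes. The 8 intronic leading regions of the editing-deficient mice lay in the longest intron of their transcript in 6 cases, all but *Dpyd* and *Gtdc1*. Over all genes with such a region the share was 53.7% (144 of 268). The count depends on the transcript used: for *Thrb* it was *Thrb*-202, with a longest intron of 20326 nt, whereas intron 1 of *Thrb*-201 measures 165869 nt. The distance from the 8 regions to the nearest end of the intron ranged from 4083 nt (*Sult2a1*) to 237721 nt (*Sgcz*). Peaks of 5 kb or less apart were joined into clusters, a description set after the data were seen. These clusters took up 0.594% of *Sgcz*, 1.37% of *Gtdc1*, 2.38% of *Hnf4g*, 2.76% of *Cnot4*, 4.82% of *Thrb* and 7.99% of *Dpyd*. They took up 12.5% of *Sdc2* and 26.8% of *Sult2a1*, the shortest of the genes. The same shares were not computed for other genes.

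**Figure D4:**
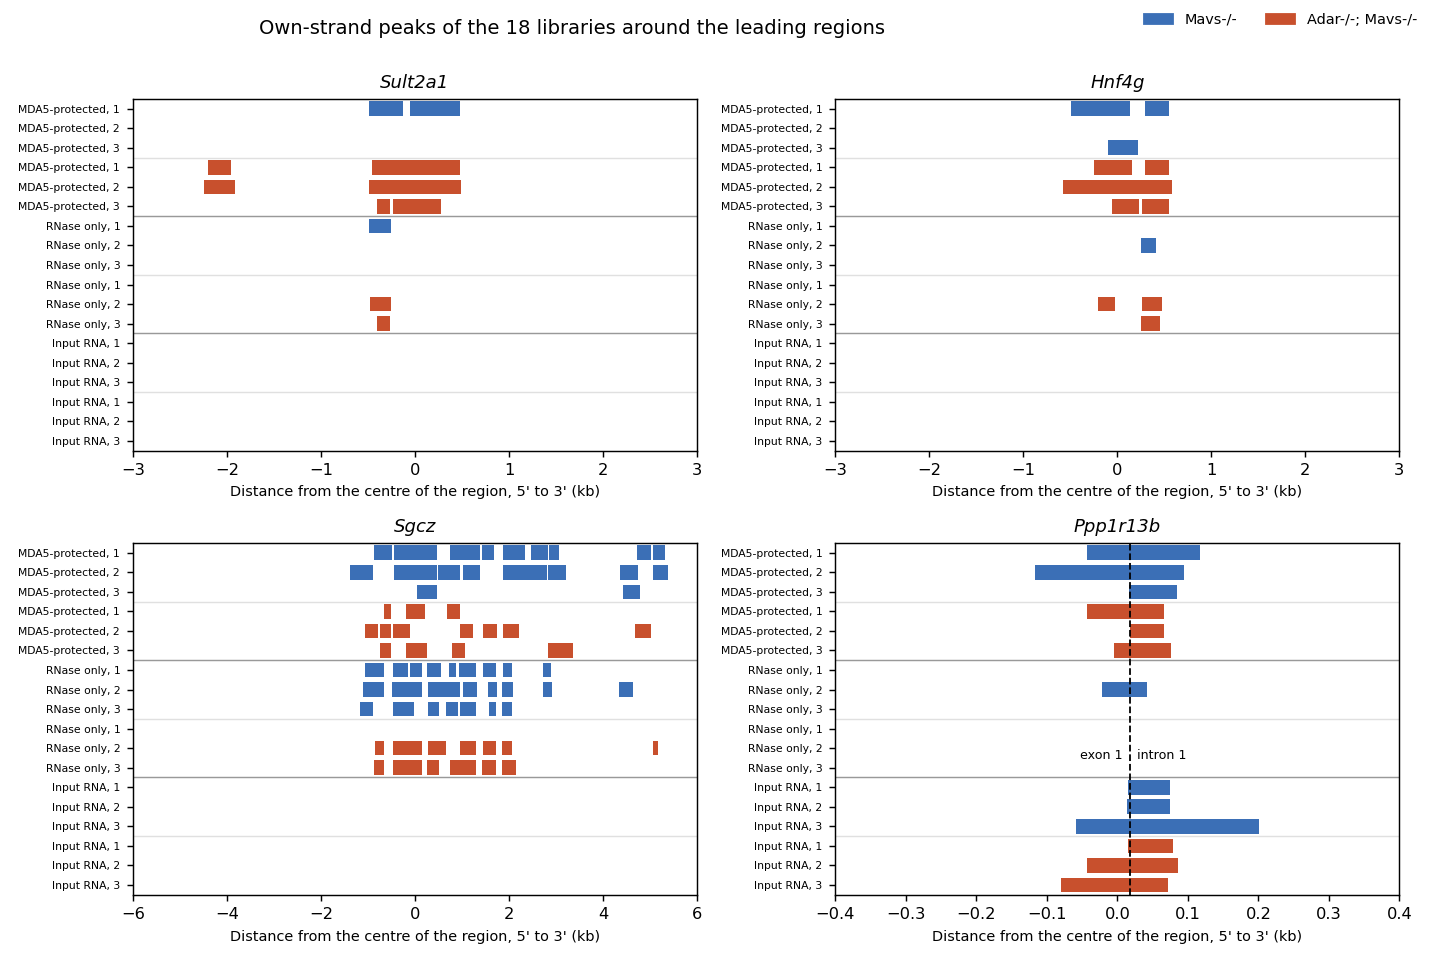
Own-strand peaks (bars) of the 18 libraries (rows, labelled by fraction and replicate) in *Mavs*-/- (blue) and editing-deficient (red) mice, around the editing-deficient leading region of 4 genes. The x axis is the distance in kb from the centre of the region in the direction of transcription, and the dashed line marks the end of exon 1 of *Ppp1r13b*. In *Sult2a1* and *Hnf4g* the RNase-only bars cover only part of the MDA5-protected ones, in *Sgcz* both fractions share a row of short bars, and in *Ppp1r13b* input RNA has bars at the same place.

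RNA that resists RNase without MDA5 lay in the same introns in part. The 6 RNase-only libraries held 410 own-strand peaks over the 9 genes, 408 of them intronic. An intronic RNase-only peak was present in all 3 *Mavs*-/- libraries in 4 genes (*Thrb*, *Sgcz*, *Sdc2* and *Dpyd*), against 0.719% of all genes with an intron. In all 3 editing-deficient libraries it was present in 3 (*Gtdc1*, *Thrb* and *Dpyd*), against 0.938%. These shares too are background only. The genes were chosen on intronic peaks of MDA5-protected libraries, which were digested as well and can hold RNA that resists RNase without MDA5. Leading regions with peaks in all 3 libraries of their genotype were touched by an RNase-only peak of that genotype in 12 of 14 cases, the exceptions being *Cnot4* and *Ppp1r13b* in editing-deficient mice. The number fell to 8 when RNase-only peaks had to have an area of at least 1000 and to 3 when a single peak had to cover at least 50% of the region. Over all intronic regions found in all 3 libraries, 70.6% were touched in *Mavs*-/- and 71.8% in editing-deficient mice, beside 5 of 5 and 7 of 9 of the leading regions. The leading regions include that of *Ppp1r13b*, and only 4 and 8 of them lay in an intron. They were not matched with the other regions for length.

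The extent of the sharing differed among the genes. In *Dpyd* 59.2 to 77.0% of the MDA5-protected bases of a library also lay under an RNase-only peak of any replicate of the genotype. The ranges were 51.1 to 74.7% in *Thrb* and 47.4 to 66.7% in *Sgcz*. In *Sdc2* they were lower, with 16.3 to 34.9%, and in editing-deficient *Sult2a1* and *Cnot4* they were 19.4 to 29.4% and 0 to 21.7%. *Gtdc1* and *Hnf4g* had 42.5 to 68.1% and 33.0 to 48.2% in editing-deficient mice. In editing-deficient mice the shares of *Sult2a1* and *Cnot4* thus lay below those of the 6 other intronic genes. The margin was small, since *Sult2a1* reached 29.4% and the lowest share of *Sdc2* was 29.7%. In *Mavs*-/- mice *Sdc2*, with 16.3 to 25.3%, lay below the 26.3% of *Sult2a1*. *Cnot4*, *Hnf4g*, *Sult2a1* and *Gtdc1* had few peaks in *Mavs*-/- mice, where the share was 0% in *Cnot4*, 0 and 6.52% in *Hnf4g*, 26.3% in *Sult2a1* and 63.8% in *Gtdc1*.

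RNase-only coverage of the genotypes was compared by exact permutation over the 6 libraries, taken on both sides, for which 0.10 is the smallest possible p. *Gtdc1* was the only gene with groups that did not overlap, with 104, 96 and 121 bases in *Mavs*-/- and 256, 1010 and 4544 bases in editing-deficient mice (exact permutation p = 0.10, 0.9 after Benjamini-Hochberg adjustment over the 9 genes). With the strands merged, the groups of *Gtdc1* overlapped (exact permutation p = 0.30). A position under peaks of both strands then counted as a single base, as in part of intron 5. Coverage summed over the strands was not tested. Among all genes with an RNase-only peak, 3.89% had every editing-deficient library above every *Mavs*-/- library, and 0.844% had every one below, which none of the 9 genes did. *Sgcz* had 2600 ± 667 bases in *Mavs*-/- and 1442 ± 1250 in editing-deficient mice (SD, n = 3 each), and the groups overlapped (exact permutation p = 0.30). For the other 7 genes the exact p lay between 0.40 and 1.00. When the editing-deficient library of replicate 1, which stood apart, was left out, *Cnot4*, *Hnf4g*, *Gtdc1*, *Thrb* and *Dpyd* had both remaining libraries above all *Mavs*-/- libraries. The share over all genes was then 12.8%, which is background only. Of these genes *Cnot4*, *Hnf4g* and *Gtdc1* had intronic MDA5-protected peaks in all 3 libraries of the editing-deficient mice alone. RNA that resists RNase without MDA5 can lie under such peaks, so that this order is not independent of the choice of genes.

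Few of the genes had peaks before digestion. *Cnot4*, *Hnf4g*, *Gtdc1*, *Thrb* and *Sgcz* had no own-strand input peak in any of the 6 libraries, and none of the 27 input peaks of the other 4 genes was intronic. Intronic input peaks in all 3 libraries were rare among all genes too, at 0.126% in *Mavs*-/- and 0.237% in editing-deficient mice. *Sdc2* had 363, 526 and 445 bases under input peaks in *Mavs*-/- and 579, 1121 and 1153 bases in editing-deficient mice. The groups did not overlap, with means of 445 ± 81.5 and 951 ± 323 bases (SD, n = 3 each), but the exact permutation p of 0.10 became 0.4 after adjustment over the 4 genes with a peak. Among all genes with an input peak 16.7% showed the same order and 2.93% the opposite one, shown by none of the 4, and the editing-deficient lists were longer, with 6991 to 8948 peaks against 4326 to 6625. With only as many of the strongest peaks from each library as the shortest list holds, the groups of *Sdc2* overlapped.

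Markers of stellate cells and fibroblasts (*Col1a1*, *Col3a1* and *Dcn*) moved with genotype too, with 13 to 19 input peaks in a *Mavs*-/- library and 3 to 6 in an editing-deficient one. *Col3a1* accounted for most of this, with 12, 10 and 10 peaks in *Mavs*-/- and 0, 1 and 0 in editing-deficient mice, whereas *Dcn* had 0, 3 and 1 against 3, 3 and 4. Of the 8 hepatocyte markers *Cyp3a11* had 7, 9 and 8 against 2, 3 and 4 peaks, whereas *Fgb* had 8, 8 and 7 against 9, 10 and 8, and the sum over the list was 55 to 57 against 46 to 56. The erythroid marker *Alas2* had 1, 1 and 5 peaks against none, and the sum over the 5 erythroid markers was 8 to 11 against 9 to 11. The share of all genes with such an order of peak numbers was not computed, and a number of peaks is not an amount of RNA. The part of these markers in the *Sdc2* difference was not tested. Fewer cells of a type cannot be told apart from less RNA per cell in whole liver. *Sult2a1* had 370, 201 and 0 input bases in *Mavs*-/- and 213, 395 and 190 in editing-deficient mice (exact permutation p = 0.50). *Dpyd* had 232, 0 and 0 against 0, 685 and 326 (exact permutation p = 0.40), and *Ppp1r13b* 59, 61 and 260 against 63, 128 and 153 (exact permutation p = 1.00). A difference in these 3 genes was not detectable with these lists, in which the input coverage of the groups overlapped.

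Partners and relatives of the genes were looked up in the same lists. Of 41 partner and family genes listed, 40 were found in the annotation by name. *Tp53bp2*, listed with *Ppp1r13b*, was not found under that name, so that its peaks were not looked up. An own-strand intronic MDA5-protected peak in any library was present in 6 of the 40, as in 3.52% of all genes with an intron. In at least 2 libraries of a genotype, met by 0.857% of all genes in *Mavs*-/- and 1.88% in editing-deficient mice, a peak was present only in *Cnot6l*, a deadenylase of the CCR4-NOT complex, and *Upb1*, the last enzyme of uracil breakdown, both in *Mavs*-/-, and in *Sult2a2* in editing-deficient mice. The longest of these peaks measured 122, 350 and 193 nt. *Sult2a8*, a relative of *Sult2a1*, had 6 intronic peaks in *Mavs*-/- replicate 1 alone, the longest of 652 nt. No peak was found in *Hnf4a*, in *Thra* and the 5 receptors and corepressors listed with it, or in the 3 other syndecans.

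The genes outside the set with the most similar percentiles over the 6 MDA5-protected libraries, among 1174 genes with an intronic peak, were also named. They were *Strbp* for both *Dpyd* and *Sdc2*, with mean absolute differences of 1.70 and 2.12 percentile points, and the pseudogene *Cyp2d36-ps* for *Thrb*, with 1.80. *Sec22a* was closest to *Hnf4g* and *Sult2a1* (4.14 and 6.21), *Itsn2* to *Cnot4* (4.12) and *Epb41l5* to *Gtdc1* (3.24). *Sgcz* had no close match, since *Samd4b* differed by 11.1 points on average. For *Ppp1r13b* the match, *Gm31305* (2.80), rests on the lone intronic peak of editing-deficient replicate 2.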

How the data were processed

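Peaks of MDA5-protected, RNase-only and input RNA were compared over 9 genes in all 18 libraries, whose labels give genotype, fraction and replicate. Reads had been trimmed (Trim Galore 0.6.6) and mapped to GRCm38 (NextGenMap) by the authors, who called peaks per library and strand with Genrich 0.6.1, with the input of the genotype as control for digested libraries and none for input. Blacklisted regions and rRNA were excluded. The deposited score is the area under the significance curve, and the deposited significance is the −log10 adjusted p. The smallest deposited area was 500.008. Peaks are relative to input, and the area grows with depth. How reads that match several places were handled is not given in the sources used here.

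The genes, lists and tests were chosen with earlier results of these data known. Introns were numbered along the APPRIS principal transcript, or along another transcript where that one did not hold the region. All 9 genes were named, with the region of most libraries and best mean rank, fixed lists of partner genes, and the gene of smallest mean difference in percentile. Covered bases were tested with two-sided exact permutation tests and Benjamini-Hochberg adjustment. Steps were tested on simulated data. Alternatives were other minimum areas, significance and strands, another definition of intronic, subtraction of RNase-only peaks, equal numbers of peaks, each replicate left out and a replicate block. Replicates are biological by the study's methods. Repeat annotation and inverted copies were not analysed here. Clusters of peaks and the set without editing-deficient RNase-only replicate 1 were added after the data were seen. Sequence came from the GENCODE M21 transcripts. Python 3.11.15, numpy 2.4.6 and matplotlib 3.10.9 were used. Start positions are counted from 1.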

Additional observations from a re-analysis of the deposited data

Results flagged for a closer look

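Peaks on the strand opposite to the gene were not part of the comparisons. A total of 30 such peaks lay over 6 of the 9 genes. In 2 genes every RNase-only library of a group had more opposite-strand bases than any input library. RNase-only peaks were called with input as control, so that this order is no test. Own-strand intronic peaks made up 14.5 to 39.8% of the RNase-only lists and 1.46 to 3.15% of the input lists. The share of all genes with the same order was not computed.

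In intron 14 of *Dpyd*, opposite-strand peaks within chr3:119085439-119086041 covered 428, 360 and 511 bases in the RNase-only libraries of *Mavs*-/- mice (mean 433 ± 75.6, SD, n = 3) and 603, 452 and 507 bases in those of editing-deficient mice (mean 521 ± 76.4). The highest input library had 234 bases. The peak ranked 28 of 5798 in the editing-deficient RNase-only library of replicate 1, the library with few peaks over these genes. It was present in 4 of the 6 MDA5-protected libraries, and own-strand peaks at 119085609–119086052 were present in 5. MDA5-protected libraries thus had peaks on both strands of this stretch, but the opposite-strand peak was there without MDA5 as well. How reads were assigned to the strands was not tested.

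In *Gtdc1*, opposite-strand bases in the 3 editing-deficient RNase-only libraries were 198, 191 and 299 (mean 229 ± 60.4, SD, n = 3), with none in any input library. All 3 had a peak in intron 5 at chr2:44640558-44640755, ranked 252 of 5798, 502 of 6094 and 1697 of 5605, and replicate 3 had 101 further bases in intron 1. *Mavs*-/- replicates 1 and 3 had the intron 5 peak as well, with 187 and 157 nt, and the difference between genotypes was not tested.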

How the results depend on the processing

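The 8 genes with an intronic MDA5-protected peak in all 3 editing-deficient libraries became 5 with a minimum area of 1000, which removes weak peaks, and stayed within 1.5 times of 8 under every other alternative run, while the count of 4 in *Mavs*-/- mice stayed between 3 and 5. Of the 14 leading regions 12 were touched by an RNase-only peak, against 3 when a single peak had to cover at least 50% of the region. The count of genes with every editing-deficient library higher was 1 for input bases (*Sdc2*) and 1 for RNase-only bases (*Gtdc1*). It became 0 for input with equal numbers of peaks per library. For RNase-only it became 0, with *Gtdc1* lost, when the strands were merged. Positions under peaks of both strands then counted as a single base. With each library left out the count ranged from 1 to 2 for input (2 without *Mavs*-/- replicate 3 or editing-deficient replicate 1). For RNase-only it ranged from 1 to 5 (5 without editing-deficient replicate 1). The cause was not tested.

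Differences of means (editing-deficient minus *Mavs*-/-) that changed sign when a library was left out were those of input bases in *Sult2a1*, from -19.5 to 166, and *Ppp1r13b*, from -45.8 to 54.7. For RNase-only bases they were those of *Sult2a1*, from -124 to 921, *Sdc2*, from -427 to 842, and *Dpyd*, from -2674 to 6257. With the replicate number as a replicate block, 1 gene was again higher in all 3 same-numbered libraries in input and 1 in RNase-only, at an exact sign-flip p of 0.25, the smallest that 3 pairs allow. The numbers did not pair the samples, with correlations of deviations of -0.0747 to 0.016, and 1 of 3 libraries closest to its own number in each fraction. The search for inverted copies of the leading regions was not run, because no genome sequence was used here. The lists give no depth, which limits every statement on a missing peak. Clusters at a gap of 2 kb took up 0.594% to 20.5% of the 8 intronic genes.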
